A study of Mus musculus with 26 samples.

Results

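Melanin synthesis and melanosome genes were followed as 10 named mouse genes of the 55416 in the deposited tables, and all 10 were found there by Ensembl identifier. They are Tyr (ENSMUSG00000004651), Tyrp1 (ENSMUSG00000005994), Dct (ENSMUSG00000022129), Pmel (ENSMUSG00000025359), Mlana (ENSMUSG00000024806), Gpr143 (ENSMUSG00000025333), Slc45a2 (ENSMUSG00000022243), Oca2 (ENSMUSG00000030450), Slc24a5 (ENSMUSG00000035183) and Trpm1 (ENSMUSG00000030523). They were chosen by name, with earlier results of these data known. All animals were C57BL/6 mice that carried lung metastases after intravenous injection of B16F10, a pigmented mouse melanoma line, and polyadenylated RNA was sequenced in 26 libraries. The groups were whole lung with propranolol, a β-adrenoceptor blocker (5 libraries), and whole lung with no treatment (5), lung monocytes obtained by flow sorting with propranolol (4) and with no treatment (4), and bead-purified CD4+ T cells with propranolol (4) and with no treatment (4). Untreated animals are described as receiving no treatment, not a vehicle. The sources used here give no dose, duration, age or sex, and lung without tumour and B16F10 cells alone were not analysed here.

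Melanin is made in melanosomes, lysosome-related organelles of pigment cells. Tyrosinase (Tyr) oxidises tyrosine and starts the pathway, and Dct and Tyrp1 act on later intermediates. Pmel forms the fibrils on which pigment is laid down, Mlana is a small membrane protein that binds Pmel, and Gpr143 is a receptor of the melanosome membrane. Slc45a2 and Oca2 set the ionic conditions inside the organelle, Slc24a5 is a cation exchanger of the pigment cell's secretory route, and Trpm1 is a cation channel. In the skin and in melanoma many of these genes are transcribed under MITF, the melanocyte lineage factor, which binds the sequence CATGTG within a longer element called the M box. Cells of the lung itself are not known as a source of melanin.

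Promoter sequence is shown as background on these genes, and its part in the changes described further on was not tested. RefSeq promoter entries (build GRCm38.p6) matched 6 of the 10 genes: Tyr, Tyrp1, Dct, Oca2, Slc24a5 and Trpm1, the last with 2 entries. The 250 bases before the start of transcription are printed for the 3 genes of the enzymes and for Oca2, the gene with the most negative lung change. Capitals mark CATGTG, or CACATG where it lies on the other strand. The windows are chr7:87493513-87493762 on the minus strand for Tyr, chr4:80833963-80834212 on the plus strand for Tyrp1, chr14:118052247-118052496 on the minus strand for Dct and chr7:56239509-56239758 on the plus strand for Oca2.
Tyr: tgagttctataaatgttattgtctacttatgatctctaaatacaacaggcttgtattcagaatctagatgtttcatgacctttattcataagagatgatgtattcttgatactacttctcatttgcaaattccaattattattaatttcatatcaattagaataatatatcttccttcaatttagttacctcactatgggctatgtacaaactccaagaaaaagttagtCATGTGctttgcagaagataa
Tyrp1: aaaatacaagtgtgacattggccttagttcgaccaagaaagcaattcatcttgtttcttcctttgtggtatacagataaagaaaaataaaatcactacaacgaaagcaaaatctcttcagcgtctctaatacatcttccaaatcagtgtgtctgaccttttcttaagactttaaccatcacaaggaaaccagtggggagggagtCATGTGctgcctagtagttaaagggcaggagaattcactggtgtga
Dct: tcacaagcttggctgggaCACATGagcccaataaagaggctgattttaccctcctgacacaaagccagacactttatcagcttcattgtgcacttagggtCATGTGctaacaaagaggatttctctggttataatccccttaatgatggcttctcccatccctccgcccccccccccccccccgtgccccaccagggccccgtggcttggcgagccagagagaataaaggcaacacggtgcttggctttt
Oca2: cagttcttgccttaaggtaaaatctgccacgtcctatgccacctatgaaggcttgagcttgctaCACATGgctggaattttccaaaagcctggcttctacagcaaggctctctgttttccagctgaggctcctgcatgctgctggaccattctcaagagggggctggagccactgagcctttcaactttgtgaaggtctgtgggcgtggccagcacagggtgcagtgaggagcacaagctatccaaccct

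Searched on both strands, CATGTG was present in at least 1 window of all 6 genes, and the second Trpm1 window held no match. Of 32851 RefSeq windows of this length, 12.3% held it. The longer string TCATGTG, which contains the first motif, was present for Tyr, Tyrp1, Dct, Slc24a5 and Trpm1 and in 3.25% of all windows. TCATGTGCT, the core of the M box, was present for Tyr, Tyrp1 and Dct and in 0.335% of all windows. It began 22 bases upstream of the start in Tyr, 47 in Tyrp1 and 151 in Dct. In Oca2 the single match to CATGTG began 186 bases upstream. The M box was searched for as a known element of pigment genes, so finding it here is no independent result. Shares over all windows count single windows, while a gene was counted by any of its windows, and no enrichment was tested. These matches describe letters in a window and no binding.

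The summed count of a library lay between 29650100 and 43447900 in treated and between 33232100 and 47618600 in untreated whole lung. They ran from 36277700 to 46407800 in treated and from 36371400 to 48306900 in untreated libraries labelled monocytes, and from 27742400 to 42484100 in treated and from 17625700 to 35600300 in untreated libraries labelled CD4 T cells, rounded to the nearest 100. Whether each library stands for its own animal is not stated in the labels, so the spread behind every p-value is that of libraries and may be technical. In the monocyte groups, libraries 1 and 2 lay close to each other, as did 3 and 4. Their counts differed by a chi-square of 3.52 to 5.24 per degree of freedom within such pairs and of 12.2 to 35.6 across them. Untreated CD4 T cell libraries lay nearly as close in every pair, at 4.84 to 7.07. Treated CD4 pairs ran from 5.46 (libraries 3 and 4) to 139 (libraries 1 and 2). All pairs differed by more than sampling noise, which technical libraries of 1 animal can also do. Each library was entered as 1 replicate, and the monocyte comparison is also given with close libraries summed. No such summing was done for CD4 T cells, so their p-values carry the same limit. The libraries labelled monocytes carried the monocyte genes Csf1r (594 ± 81.4 CPM treated, 457 ± 49.4 untreated) and Cd14 (648 ± 59.4 and 673 ± 69.5 CPM), but also Sftpc of alveolar type 2 cells (2144 ± 173 and 2299.6 ± 95.7 CPM) and Cdh5 of endothelium (1259 ± 14.6 and 1679 ± 51.2 CPM; SD, n = 4). CPM scales a gene's count to the total count of its library. The libraries labelled CD4 T cells carried Cd4 (458 ± 55.5 CPM treated, 644 ± 4.90 untreated; SD, n = 4), while Sftpc had no count in any of them.

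In untreated whole lung the 10 genes together took 2.02, 1.68, 1.35, 1.83 and 1.70% of all counts in libraries 1 to 5. Divided by annotated exon length, Pmel and Tyrp1 stood highest, at 1802 ± 256 and 1627 ± 281 CPM per kilobase (SD, n = 5), and their ranges overlapped. Dct followed at 899 ± 114, Mlana at 444 ± 60.4 and Slc45a2 at 274 ± 37.3 CPM per kilobase, with no overlap between neighbours in this order. Slc24a5 (114 ± 14.8), Tyr (86.1 ± 21.3) and Trpm1 (57.3 ± 15.1 CPM per kilobase) came next, and each overlapped its neighbour. Oca2 (22.3 ± 4.31) and Gpr143 (19.0 ± 1.89 CPM per kilobase) were lowest and overlapped. The lengths are those of GENCODE M21, an older annotation than the one behind the counts, and that of Trpm1 joins exons of many isoforms, which lowers its value.

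The first comparison asked how pigment gene RNA in metastasis-bearing lung differed between propranolol and no treatment. All 10 genes were lower in treated lungs, by a median log2 change of −2.07, against 0.03 over all 18639 genes tested. The 10 together took 0.736, 0.357, 0.175, 0.0911 and 0.866% of counts in treated libraries 1 to 5, all below the lowest untreated library. In this comparison 70.8% of all tested genes passed the threshold (adjusted p under 0.05), 35.3% as lower and 35.5% as higher. In bulk lung, fewer cells of a type and less RNA per cell cannot be told apart.

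Among the enzymes, Tyr stood at 267, 126, 62.7, 28.4 and 341 CPM in treated lungs 1 to 5, against 654, 432, 488, 805 and 679.9 CPM in untreated lungs 1 to 5. Treated libraries 3 and 4 were lowest, 1 and 5 highest, and the groups did not overlap. The log2 change was −2.08 ± 0.55 (SE, adjusted p = 0.00592). Tyrp1 stood at 1723, 859.6, 451, 231 and 2034 CPM in treated lungs, against 5601, 4776, 3429.9, 4848 and 4353 CPM in untreated lungs. Its log2 change was −2.31 ± 0.50 (SE, adjusted p = 0.00194), with the same treated libraries high and low. Dct, which converts dopachrome on the way to brown-black pigment, stood at 2545, 1241, 546, 293 and 3131 CPM in treated lungs, against 6193, 5125, 4340.5, 5514 and 5322 CPM in untreated lungs. The highest treated library lay below the lowest untreated one, and the log2 change was −1.97 ± 0.54 (SE, adjusted p = 0.00681).

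Of the structural and membrane proteins, Pmel stood at 1733, 818, 412, 218 and 1922 CPM in treated lungs, against 4930.4, 4269.8, 3304, 4192 and 3954 CPM in untreated lungs. The groups were apart, with a log2 change of −2.21 ± 0.51 (SE, adjusted p = 0.00262). Mlana, also known as the melanoma antigen MART-1, stood at 250.4, 117, 58.4, 30.4 and 247 CPM in treated lungs, against 545, 454, 372, 497 and 478 CPM in untreated lungs. Here treated library 1 was slightly above library 5, the reverse of the other 9 genes, and the log2 change was −1.93 ± 0.49 (SE, adjusted p = 0.00446). Gpr143 had far lower counts, at 18.3, 7.59, 3.57, 2.43 and 20.6 CPM in treated lungs, against 41.1, 35.9, 32.4, 40.0 and 40.6 CPM in untreated lungs. It too fell in every treated library below the untreated range (log2 change −2.05 ± 0.50, SE, adjusted p = 0.00371).

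Among transporters and channels, Oca2 had the most negative change. It stood at 25.0, 13.6, 7.53, 3.33 and 27.2 CPM in treated lungs, against 98.6, 70.9, 68.6, 105 and 97.6 CPM in untreated lungs, a log2 change of −2.72 ± 0.47 (SE, adjusted p = 0.000510). Its highest treated value was well under the lowest untreated one. Trpm1 stood at 305, 149, 83.0, 38.0 and 340.5 CPM in treated lungs, against 945, 633, 601, 1125 and 919.8 CPM in untreated lungs (log2 change −2.40 ± 0.51, SE, adjusted p = 0.00171). Slc45a2 stood at 360.4, 181, 90.1, 47.6 and 461 CPM in treated lungs, against 938, 778, 648, 879 and 841 CPM in untreated lungs (log2 change −2.04 ± 0.51, SE, adjusted p = 0.00414). Both were lowest in treated library 4. Slc24a5 stood at 132, 60.3, 35.1, 17.9 and 137 CPM in treated lungs, against 294, 236, 223, 298 and 280.3 CPM in untreated lungs (log2 change −1.99 ± 0.47, SE, adjusted p = 0.00296). The lung groups were apart for all 10 genes, in plain CPM and in CPM scaled by the TMM factors of the test. Of all genes tested, 18.2% were lower with no overlap in plain CPM and 28.9% in TMM-scaled CPM.

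**Figure D1:**
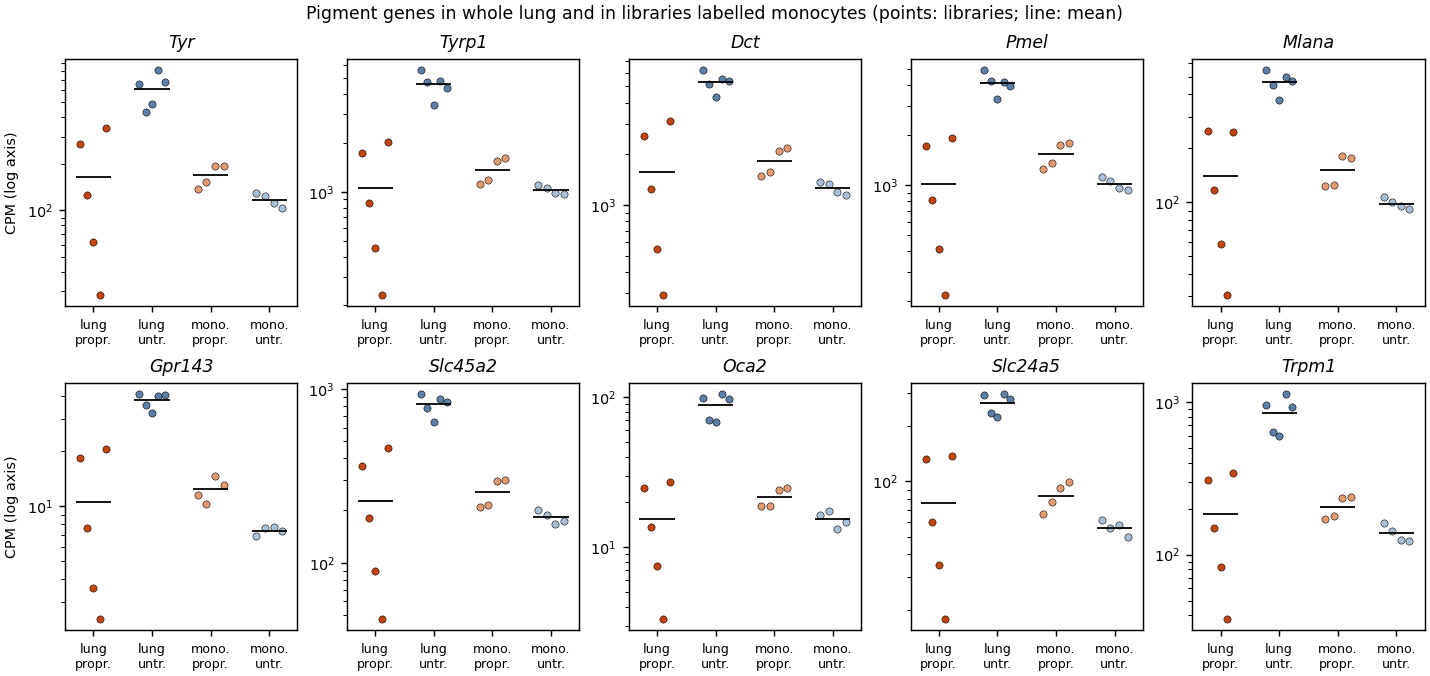
Levels in CPM on a log axis for each of the 10 genes in whole lung and in libraries labelled monocytes, propranolol left of untreated; points are libraries in order of their number and lines are means. In each panel the 5 treated lungs spread widely and lie below the 5 untreated lungs, while in plain CPM the 4 treated monocyte libraries lie above the 4 untreated ones.

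Treated lungs differed from each other more than untreated lungs did. The highest treated library exceeded the lowest by 7.66 times (Slc24a5) to 12.01 times (Tyr), whereas among untreated lungs the ratio was 1.27 (Gpr143) to 1.87 (Trpm1). The order of treated libraries, 4 lowest, then 3, 2, 1 and 5, was the same for 9 of the 10 genes. Without libraries 3 and 4 all 10 genes were still lower, with log2 changes of −2.18 (Oca2) to −1.37 (Mlana). Alveolar and endothelial markers were higher in treated lungs, in 11 of 12 alveolar type 2, 7 of 8 alveolar type 1 and 12 of 13 endothelium genes. The fibroblast list had 4 genes higher and 3 lower of 8, and the airway list 3 higher and 2 lower of 7 tested. Over all genes, 35.5% were higher and 35.3% lower. In CPM, the summed alveolar type 2 list (12 genes) ran from 14863 to 23608 in treated and from 7996 to 13925 in untreated lungs, and the endothelium list (13 genes) from 3557 to 5769 and from 1854 to 3147, and their part in the pigment gene result was not tested. Scaled on such resident markers, which put the median over all genes at −0.73 (log2) and left 14.1% of called genes higher (1783 higher, 10857 lower) against 50.1% (6614 higher, 6575 lower), all 10 genes were lower, and Oca2 changed by −3.35 and Mlana by −2.57.

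The make-up of pigment gene RNA was similar in treated and untreated lungs, while its amount differed several-fold. Dct made up 33.8 ± 2.0% of the 10 genes' summed counts in treated and 30.9 ± 0.8% in untreated lungs, Tyrp1 24.4 ± 1.1 and 26.7 ± 1.3%, and Pmel 23.2 ± 0.7 and 24.1 ± 1.0% (SD, n = 5 each). The ratio of Dct to Tyrp1 ran from 1.21 to 1.54 in treated and from 1.07 to 1.27 in untreated lungs, which overlap. The share of Mlana ran from 2.85 to 3.40% in treated and from 2.69 to 2.82% in untreated lungs, without overlap. For Oca2 it ran from 0.314 to 0.430% in treated and from 0.422 to 0.576% in untreated lungs, a narrow overlap. With libraries scaled on the 10 genes' own sum, log2 changes ran from −0.49 (Oca2) to 0.24 (Mlana) and none passed (edgeR, adjusted p from 0.453 to 0.999). In that scaling 17712 of all 18639 genes tested passed, 17701 as higher and 11 as lower. It fixes the sum of the 10 genes, so it does not show that each share stayed the same.

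**Figure D2:**
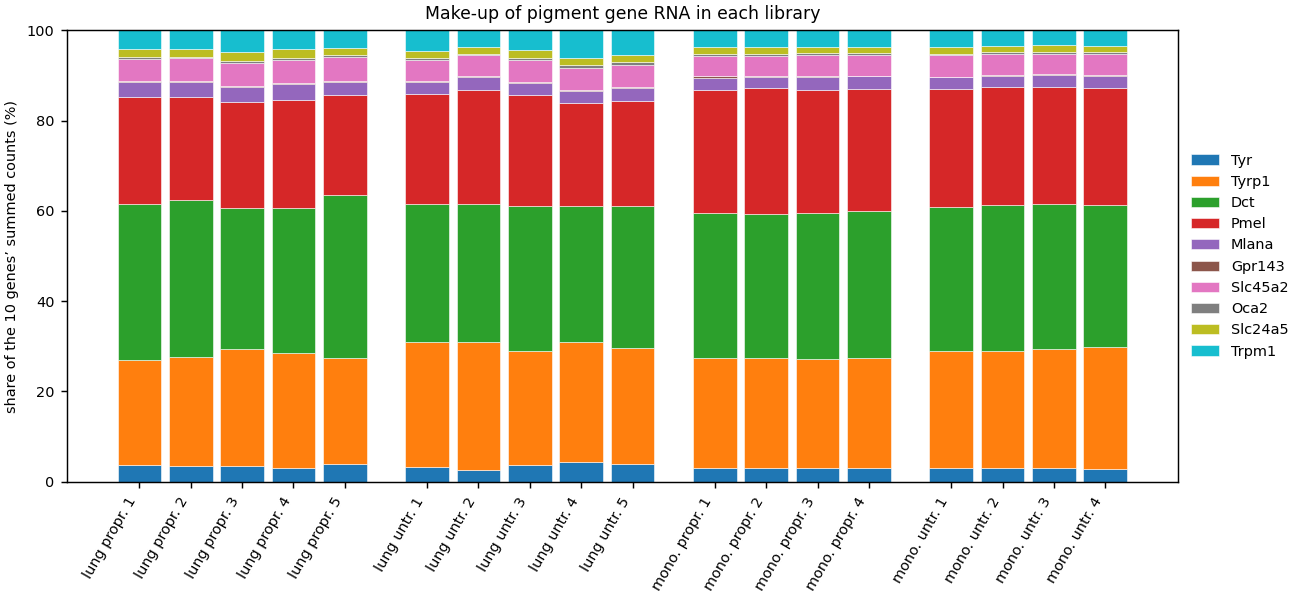
Share of each of the 10 genes in their summed counts (percent, stacked to 100) for every whole lung and monocyte library, propranolol left of untreated. Dct, Tyrp1 and Pmel make up most of each bar, and the bars look alike although the summed level runs from 911 to 20241 CPM in lung.

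The rest of the pathway was read from a list of 27 genes of melanosome biogenesis and transport and a list of 8 melanocyte regulators, neither holding any of the 10. In whole lung 23 of 27 biogenesis genes were lower, 1 was higher and 3 did not pass, with a median log2 change of −0.53. Over all genes tested there, 35.3% were lower and 35.5% higher. The 4 lower genes with the smallest p were Atp7a, which brings copper to tyrosinase (−0.83 ± 0.11, adjusted p = 0.000138), Bloc1s5 (−0.62 ± 0.09, adjusted p = 0.000194) and Dtnbp1 (−1.08 ± 0.16, adjusted p = 0.000215) of the sorting complex BLOC-1, and Ap3b1 of the adaptor AP-3 (−0.61 ± 0.09, adjusted p = 0.000253; SE). These serve lysosome-related organelles in many cell types. The higher gene was Tpcn2, a cation channel of endolysosomes and melanosomes, at 24.5, 21.7, 26.5, 32.0 and 25.2 CPM in treated lungs, against 13.7, 16.7, 15.6, 14.0 and 15.7 CPM in untreated lungs (log2 change 0.60 ± 0.11, SE, adjusted p = 0.000743).

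Of the 8 regulators, 6 were lower and 2 higher in lung (median −1.80), where 35.3% of all genes were lower and 35.5% higher. Mitf, the lineage factor, stood at 302, 157, 116, 63.8 and 364 CPM in treated lungs, against 739, 492, 619.7, 901 and 785 CPM in untreated lungs (log2 change −2.01 ± 0.41, SE, adjusted p = 0.00129). The groups did not overlap. Sox10 (−1.95 ± 0.49), Pax3 (−1.83 ± 0.48) and Tfap2a (−1.81 ± 0.48; SE), transcription factors of the neural crest lineage, were lower with adjusted p of 0.00449, 0.00591 and 0.00624. The 2 higher genes were the receptors Kit (0.77 ± 0.12) and Ednrb (0.79 ± 0.25; SE), which lung endothelium also makes; 12 of 13 endothelium markers were higher in these lungs, and their part in the Kit and Ednrb result was not tested.

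The second comparison asked the same of the libraries labelled monocytes, where pigment transcripts were present in every library. All 10 genes were higher with propranolol, with log2 changes from 0.36 (Tyrp1) to 0.70 (Gpr143), a median of 0.51 against 0.02 over 18236 tested genes. Of all tested genes 30.5% passed, 14.3% as higher and 16.1% as lower. These calls rest on counting close libraries apart: with libraries 1 and 2 summed, and 3 and 4 summed, none of the 10 passed (log2 0.35 to 0.69, adjusted p from 0.0568 to 0.289), and in 1 fit with the lung libraries none passed either (adjusted p from 0.331 to 0.639).

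Tyr stood at 137, 153, 193 and 195 CPM in treated libraries 1 to 4, against 129.7, 123, 111 and 104 CPM in untreated libraries 1 to 4 (log2 change 0.49 ± 0.12, SE, adjusted p = 0.0117). Tyrp1 stood at 1111, 1179.7, 1557 and 1610.2 CPM in treated libraries, against 1108, 1057, 977 and 976 CPM in untreated ones (log2 change 0.36 ± 0.12, SE, adjusted p = 0.0441). The lowest treated and the highest untreated Tyrp1 values nearly met. Dct stood at 1469, 1550.0, 2083 and 2153 CPM in treated libraries, against 1369, 1319.8, 1194 and 1138 CPM in untreated ones (log2 change 0.48 ± 0.13, SE, adjusted p = 0.0166). In treated libraries 3 and 4 these enzyme transcripts were higher than in 1 and 2.

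Pmel, the fibril protein, stood at 1248, 1357, 1757 and 1799 CPM in treated libraries, against 1116, 1061, 961 and 939.8 CPM in untreated ones (log2 change 0.55 ± 0.12, SE, adjusted p = 0.00632). Mlana stood at 124, 125, 182 and 178 CPM in treated libraries, against 107, 99.9, 95.4 and 91.4 CPM in untreated ones (0.58 ± 0.13, adjusted p = 0.00713). The step between treated libraries 2 and 3 was again larger than any within the pairs. Gpr143 stood at 11.5, 10.3, 14.6 and 13.0 CPM in treated libraries, against 6.85, 7.56, 7.72 and 7.31 CPM in untreated ones (0.70 ± 0.11, adjusted p = 0.000790). Every treated value was above the highest untreated one.

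The 4 transporter and channel genes behaved alike. Slc45a2 stood at 211, 215, 297 and 302 CPM in treated libraries, against 201, 188, 168 and 173 CPM in untreated ones (log2 change 0.44 ± 0.13, SE, adjusted p = 0.0234). Oca2 stood at 18.7, 18.9, 24.1 and 24.7 CPM in treated libraries, against 16.3, 17.5, 13.2 and 14.7 CPM in untreated ones (0.44 ± 0.13, adjusted p = 0.0229). In both, treated libraries 3 and 4 were the high ones. Slc24a5 stood at 66.0, 77.3, 92.1 and 99.0 CPM in treated libraries, against 61.3, 55.5, 57.4 and 49.5 CPM in untreated ones (0.53 ± 0.12, adjusted p = 0.00757). Trpm1 stood at 171, 179, 235 and 238 CPM in treated libraries, against 161, 142, 124 and 123 CPM in untreated ones (0.53 ± 0.13, adjusted p = 0.0105). In plain CPM the treated libraries lay above the untreated ones for all 10 genes, as they did for 19.8% of all genes tested. In TMM-scaled CPM this held for 6 of the 10, against 14.9% of all genes tested, and the groups overlapped for Tyr, Tyrp1, Slc45a2 and Trpm1.

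Leaving out single libraries moved the count of genes called higher. It was 6 without untreated library 3, with Tyrp1, Dct, Slc45a2 and Oca2 lost, 7 without untreated library 4, treated library 3 or treated library 4, with Tyrp1, Slc45a2 and Oca2 lost, and 9 without untreated library 1 or 2, with Tyrp1 lost. Markers of structural lung cells moved the opposite way in these libraries, and those of lymphocytes did not. The endothelium list was lower in 12 of 13 genes, with a summed level of 5646 to 5666 CPM in treated and 7303 to 7427 CPM in untreated libraries. The alveolar type 2 list was lower in 8 of 12 genes and higher in 1 (4443 to 4956 CPM treated, 4906 to 5230 untreated), and the fibroblast list was lower in 6 of 8 and higher in 2 (1469 to 1507 CPM treated, 2280 to 2609 untreated). B cell markers were higher in 8 of 8. For comparison, 14.3% of all genes tested were higher and 16.1% lower. The CD4 T cell list was higher in 1 of 8 genes (median log2 change 1.03), with a summed level of 173 to 649.7 CPM in treated and 90.7 to 342 CPM in untreated libraries. Cd3e of T cells stood at 83.5, 75.0, 24.6 and 19.8 CPM in treated libraries 1 to 4, against 7.45, 13.0, 29.4 and 39.04 CPM in untreated libraries 1 to 4. Within the treated group it was high in libraries 1 and 2, where the enzyme transcripts were lower, and within the untreated group it was high in 3 and 4, where they were lower too. The monocyte list was higher in 3 of 10 genes and lower in 0 (summed level 5617 to 6683 CPM treated, 4827 to 5905 untreated). Csf1r stood at 514, 536, 648 and 679 CPM in treated libraries 1 to 4, against 507, 492, 426 and 405 CPM in untreated ones. Cd14 stood at 588, 606, 702 and 696 CPM, against 752, 710, 626 and 604 CPM. Within each group both were high in the libraries where the enzyme transcripts were high. The part of any of these cells in the pigment gene result was not tested.

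The biogenesis list had 8 of 27 genes higher, 1 lower and 18 that did not pass (median log2 change 0.08) in the libraries labelled monocytes. There 14.3% of all genes tested were higher and 16.1% lower. Of the regulators 4 of 8 were higher and 2 lower (median 0.42). Pax3 (0.52 ± 0.15, adjusted p = 0.0240) and Tfap2a (0.48 ± 0.14, adjusted p = 0.0293) were among the higher ones, while Kit (−0.43 ± 0.04, adjusted p = 3.26e-05) and Ednrb (−0.26 ± 0.04, adjusted p = 0.000378; SE) were the lower ones. Mitf changed by 0.15 ± 0.13 (SE, adjusted p = 0.396).

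**Figure D3:**
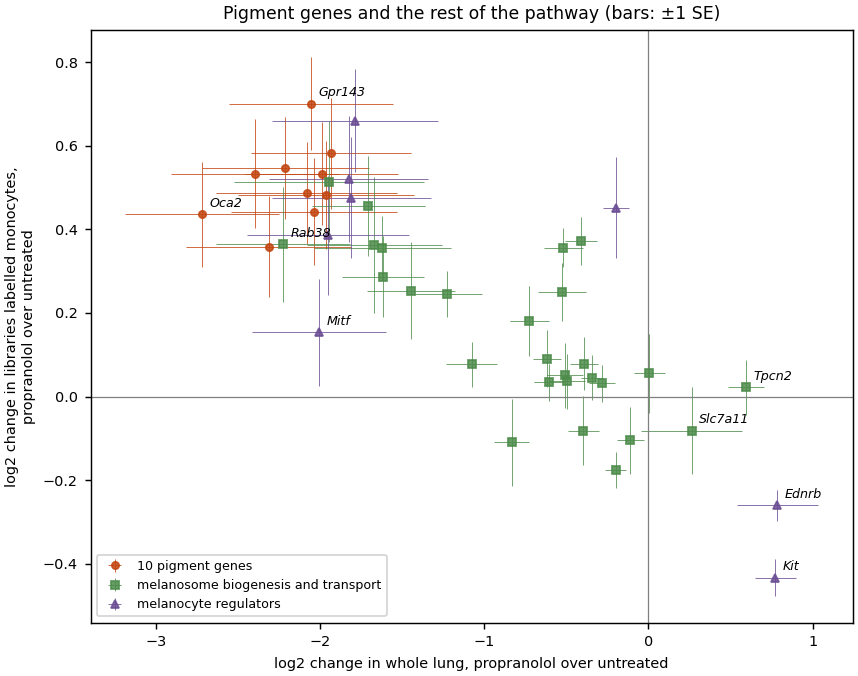
Log2 change with propranolol in whole lung (x axis) and in libraries labelled monocytes (y axis) for the 10 pigment genes, 27 biogenesis genes and 8 regulators; bars are 1 SE each way. The 10 pigment genes sit left of −1.9 and above 0.35, whereas Kit and Ednrb sit at positive lung and negative monocyte values.

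The difference between the lung and the monocyte change was tested directly as an interaction. All 10 genes differed, from −2.36 ± 0.61 (Dct, adjusted p = 0.00338) to −3.06 ± 0.53 (Oca2, adjusted p = 0.000145), with a median of −2.53 against 0.17 over 20328 tested genes. In this test 57.4% of all genes passed, 25.2% as lower and 32.3% as higher. Tyr differed by −2.47 ± 0.63, Tyrp1 by −2.58 ± 0.57, Pmel by −2.67 ± 0.58 and Trpm1 by −2.83 ± 0.58 (SE; adjusted p = 0.00291, 0.00101, 0.000868 and 0.000558). Of the other lists, 20 of 27 biogenesis genes were lower in this difference and 1 higher (Tpcn2, 0.69 ± 0.15), and 6 of 8 regulators were lower and 2 higher (Kit, 1.33 ± 0.17, and Ednrb, 1.17 ± 0.30; SE).

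**Figure D4:**
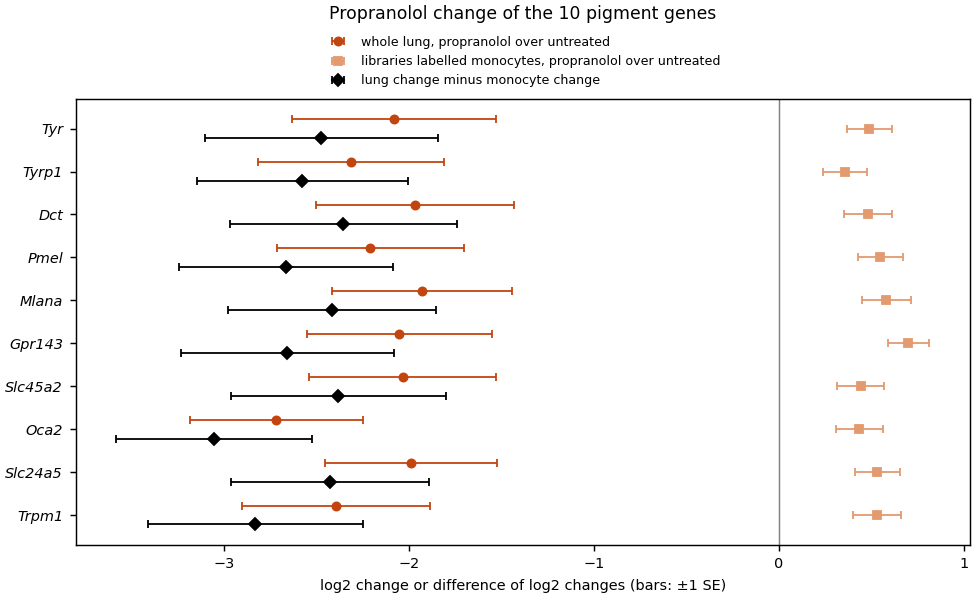
Log2 change with propranolol in whole lung and in libraries labelled monocytes, and the difference between these changes, for each of the 10 genes; bars are 1 SE each way. Lung changes lie between −2.72 and −1.93 and monocyte changes between 0.36 and 0.70.

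To show how much pigment RNA accompanied the isolated cells, levels were set against those of whole lung. With propranolol, Dct averaged 1814 ± 354 CPM in libraries labelled monocytes (SD, n = 4) and 1551 ± 1242 CPM in whole lung (SD, n = 5). The ratio of means over the 10 genes was 1.03 (Tyr) to 1.51 (Pmel), with a median of 1.15. None of the 10 passed between treated monocyte and treated lung libraries (edgeR, log2 differences 0.22 to 0.77, adjusted p from 0.230 to 0.762). At an unadjusted p under 0.05 the count was also 0, as it was with DESeq2 and limma-voom, in a comparison where 57.4% of all genes passed, 25.3% as higher and 32.1% as lower. The SE of the log2 differences ran from 0.48 (Oca2) to 0.57 (Tyr), so the lack of a call does not show equal levels. Without treatment, Dct averaged 1255 ± 107 CPM in libraries labelled monocytes (SD, n = 4) and 5299 ± 670 CPM in whole lung (SD, n = 5). There the ratio of means was 0.163 (Trpm1) to 0.247 (Pmel), with a median of 0.21. All 10 genes were lower in the untreated monocyte libraries (log2 differences −2.44 to −1.84, adjusted p of at most 1.05e-06), where 65.4% of all genes passed, 33.6% as lower and 31.9% as higher.

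In libraries labelled monocytes Dct and Tyrp1 had shares near those in lung, and several other genes did not. Dct made up 32.2 ± 0.3% of the sum in treated and 32.0 ± 0.4% in untreated libraries, and Tyrp1 24.3 ± 0.1 and 26.3 ± 0.5% (SD, n = 4 each). Pmel took a larger share, 27.4 ± 0.3% in treated and 26.01 ± 0.09% in untreated libraries, above the highest lung values of 23.9% in treated and 25.4% in untreated libraries. Mlana took a smaller share, 2.58 to 2.83% in treated and 2.45 to 2.57% in untreated libraries, below its lung range with either treatment. Trpm1 was also below its lung range, at 3.60 to 3.75% in treated monocyte libraries (3.93 to 4.74% in treated lungs) and 3.35 to 3.76% in untreated ones (3.77 to 6.15% in untreated lungs). Slc45a2 was below it with propranolol, at 4.42 to 4.62% in monocyte libraries and 4.90 to 5.32% in lungs. No test was made of these shares.

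The libraries labelled CD4 T cells held almost no pigment transcripts. Tyr, Tyrp1, Dct, Gpr143, Slc45a2 and Oca2 had no count in any of the 8 libraries, which allows a level of up to 0.0216 CPM over the treated and 0.0257 CPM over the untreated libraries (3 counts over each group, counting error only). Mlana had 16, 0, 0 and 4 counts in treated and 0, 3, 0 and 0 counts in untreated libraries, and these 7 genes were too low to test. Pmel, Slc24a5 and Trpm1 were present at low levels and were tested, in a comparison where 60% of all genes passed, 29.9% as lower and 30.1% as higher.

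Pmel stood at 4.68, 3.03, 3.69 and 2.59 CPM in treated libraries, against 10.3, 11.2, 12.6 and 12.5 CPM in untreated ones, a log2 change of −1.35 ± 0.19 (SE, adjusted p = 7.13e-05). Trpm1 stood at 1.04, 1.23, 1.19 and 1.12 CPM in treated libraries, against 3.06, 3.30, 3.03 and 2.78 CPM in untreated ones (−1.03 ± 0.22, adjusted p = 0.00198). Both pairs of groups were apart in plain and in TMM-scaled CPM. Slc24a5 stood at 0.918, 0.793, 0.446 and 0.259 CPM in treated libraries, against 1.59, 1.06, 1.71 and 1.42 CPM in untreated ones. Its groups were apart in plain CPM but overlapped in TMM-scaled CPM (0.294 to 1.05 treated, 0.924 to 1.503 untreated), and its change of −0.86 ± 0.43 did not pass (SE, adjusted p = 0.102). Of all genes tested in these libraries, 46.3% were lower with no overlap in plain CPM and 28.5% in TMM-scaled CPM.

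These low counts did not keep the proportions of lung. The untreated CD4 libraries held 1387 counts of Pmel in all, which at the Tyrp1 to Pmel ratios of untreated lung (1.04 to 1.16) would go with 1440 to 1604 counts of Tyrp1, and 0 were observed. In the treated libraries 497 counts of Pmel would go with 494 to 545 counts of Tyrp1, and again 0 were observed. All 3 genes share exon bases with a gene on the opposite strand in GENCODE M21, and the sources used here do not say whether reads were assigned by strand. Pmel shares 105 bases, 4.58% of its exons, with Dgka, a lipid kinase abundant in T cells, and 34 bases with Cdk2. Slc24a5 shares 921 bases, 39.5% of its exons, with Myef2, and Trpm1 shares 12 bases with Gm44722. Gm44722 had 0 counts in the treated and 2 in the untreated CD4 libraries, where Trpm1 had 157 and 355.

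Dgka stood at 475, 270.4, 373 and 390.1 CPM in treated libraries, against 991, 972, 937 and 971 CPM in untreated ones (log2 change −0.97 ± 0.13, SE, adjusted p = 5.07e-05). Myef2 stood at 27.6, 28.3, 29.9 and 28.8 CPM in treated libraries, against 40.7, 35.4, 44.2 and 35.0 CPM in untreated ones (−0.05 ± 0.09 after scaling, adjusted p = 0.647). Cdk2, the other gene that overlaps Pmel, averaged 43.3 ± 1.47 CPM in treated and 86.1 ± 5.54 CPM in untreated libraries (SD, n = 4 each). Reads from Pmel and Dgka or Cdk2, or from Slc24a5 and Myef2, cannot be told apart by position alone in the shared bases. These low values are uncertain, and the part of the overlaps in them was not tested. The monocyte marker list also moved in these libraries, with 8 of 10 genes higher and a summed level of 3857 to 4412 CPM in treated and 484 to 599 CPM in untreated libraries. Its part in the change of these genes was not tested.

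The lung change minus the CD4 change could be estimated for 4 of the 10 genes. It was −0.72 ± 0.60 for Pmel, −0.997 ± 0.79 for Slc24a5, −1.22 ± 0.69 for Trpm1 and −4.47 ± 2.21 for Mlana (SE; adjusted p = 0.325, 0.299, 0.142 and 0.0930). None passed with edgeR and none had an unadjusted p under 0.05, in a test where 56.2% of genes passed, 24% as lower and 32.2% as higher. DESeq2 called 2 of them lower, Mlana and Trpm1, and without treated lung library 4 edgeR called Mlana (−4.21, adjusted p = 0.0492). Mlana was too low to test in the CD4 libraries alone. Its CD4 side rests on 20 counts in treated and 3 in untreated libraries, 16 of them in treated library 1, so its estimate is weak.

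**Figure D5:**
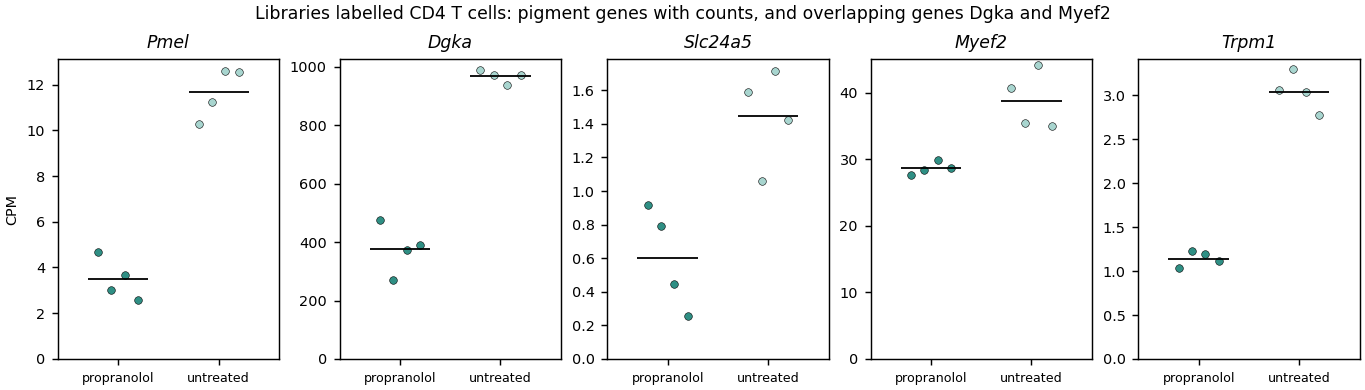
Levels in CPM in libraries labelled CD4 T cells for the 3 pigment genes with counts in every library (Pmel, Slc24a5, Trpm1) and for the overlapping genes Dgka and Myef2, propranolol left of untreated; points are libraries and lines are means, each panel with its own axis from 0. In plain CPM treated libraries lie below untreated ones in all 5 panels, with Dgka at 377 against 968 CPM on average and Pmel at 3.50 against 11.7 CPM.

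Other genes were ranked by how closely their profile over all 26 libraries followed the members' mean profile, as the root mean square difference of centred log2(CPM + 0.5) values. The 8 closest of 11843 genes were Tspan10 (0.125), Sox10 (0.250), Chsy3 (0.345), Mlph (0.369), Nrcam (0.378), Syt4 (0.413), Ptgds (0.458) and Gpnmb (0.490), against a median of 3.77 over all candidates. Sox10 and Mlph are also members of the regulator and biogenesis lists. The members' own differences from their mean profile ran from 0.231 (Mlana) to 1.79 (Dct), and several members lay further from it than these 8 genes. The near-zero CD4 libraries carry much of this measure. Over the 10 lung libraries alone 4 of these 8 were again among the closest 8. Tspan10, a tetraspanin gene, stood at 181, 84.6, 46.9, 22.6 and 224 CPM in treated lungs, against 449.5, 375, 331, 494 and 451 CPM in untreated lungs. In libraries labelled monocytes it stood at 114, 116, 150.4 and 165 CPM with propranolol, against 99.7, 98.4, 89.0 and 87.0 CPM without treatment. Its treated lungs followed the same order as those of 9 of the 10 pigment genes.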

How the data were processed

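NEBNext libraries of polyadenylated RNA were run on a NovaSeq, per the labels' protocols. What the authors deposited is 2 tables of raw whole-number counts per gene (55416 genes), of which 52083 matched a symbol by Ensembl identifier. The build GRCm39, the aligner STAR 2.7.9 and featureCounts from Subread 2.0.3 are named per the submitters' processing notes; strand setting and annotation release are not given in the sources used here. No annotation of that build was used, so overlaps and exon lengths come from GENCODE M21 (GRCm38), and coordinates are printed only for RefSeq promoter windows.

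Groups came from the labels' treatment and tissue. Levels are plain CPM computed from the deposited counts. Each comparison was fitted across all genes kept by filterByExpr (minimum count 10) with TMM scaling in edgeR 4.0.16 (R 4.3.3) and its quasi-likelihood test; p-values were adjusted by Benjamini-Hochberg over all genes tested and called under 0.05. The sign of a log2 change is that of propranolol over no treatment, or of monocytes over lung. Only the groups compared entered a fit, and differences between materials were interaction terms in fits of 4 groups. Alternatives were the size factors and test of DESeq2 1.42.0, limma-voom (limma 3.58.1; not for interactions), no or a stricter filter (mean of 5 CPM), resident marker or member sum scaling, a replicate block, 1 fit for lung and monocytes, and each library left out. Summing close monocyte libraries, TMM-scaled levels and leaving out 2 treated lungs were chosen after seeing the data. The edgeR fits were tested on simulated data with the same dispersion for every gene, a small set of changed genes and no close libraries. That test therefore does not cover the wide spread of treated lungs or the close monocyte libraries.

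The 10 genes and the lists were chosen with earlier results of these data known. Named genes were the 10, up to 4 per direction and list with the smallest p in lung (also described in the other comparisons), defining cell markers, and the 8 genes closest in profile with at least 5 CPM in untreated lung. The members whose exons overlap others were described after the values were seen.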

Additional observations from a re-analysis of the deposited data

Results flagged for a closer look

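The change with propranolol differed between whole lung and libraries labelled monocytes for each of the 10 genes, by the interaction test of edgeR. The lung change minus the monocyte change was −2.47 for Tyr, −2.58 for Tyrp1, −2.36 for Dct, −2.67 for Pmel, −2.42 for Mlana and −2.66 for Gpr143 on the log2 scale. It was −2.39 for Slc45a2, −3.06 for Oca2, −2.43 for Slc24a5 and −2.83 for Trpm1. In plain CPM all 10 were lower in 5 of 5 treated lungs than in any untreated lung, as were 18.2% of all genes tested, and higher in 4 of 4 treated monocyte libraries than in any untreated one, as were 19.8%. In TMM-scaled CPM all 10 were still apart in lung and 6 of 10 in monocyte libraries.

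Mlana in untreated CD4 library 2 stood at 0.0961 CPM, or 3 counts, while the other 3 libraries of the group had none. It was the single far-off value in 48 groups of values examined, and chance gives about 1 in 20.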

How the results depend on the processing

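All 10 genes were lower in lung under every alternative except scaling on their own sum, which removes their common change by construction. There 0 of the 10 were called, against 17712 genes in all, and Dct (0.13), Mlana (0.24), Gpr143 (0.069), Slc45a2 (0.11) and Slc24a5 (0.21) changed sign. The interaction with monocytes and the untreated monocyte to lung difference kept all 10 calls under every alternative run.

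In monocytes the count of 10 called higher depended on how libraries were treated. It fell to 0 with the close libraries summed (1377 genes called in all, against 5553), to 0 in 1 fit with lung (2069 genes), and to 1, Gpr143, with the replicate block (3544 genes). It ran from 6 to 10 with 1 library left out. With limma-voom Tyrp1 did not pass (adjusted p = 0.0522). Scaled on their own sum 0 were called (7238 genes in all), and Tyrp1 (−0.12), Slc45a2 (−0.032) and Oca2 (−0.029) changed sign. Whether the replicate numbers pair the samples is not settled here. Same-numbered libraries correlated by −0.10 to 0.59 in lung, −0.61 to −0.38 in monocytes and −0.02 to 0.03 in CD4 T cells. The best correlated untreated library had the same number for treated lungs 1 and 3 and treated CD4 libraries 2 and 3, and for no treated monocyte library. The block changed no call of the 10 genes in lung or CD4 T cells.

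In CD4 T cells 2 of the genes were called lower and 1 under the strict filter, which kept Pmel alone, and from 2 to 3 with 1 library left out. Slc24a5 passed without treated library 1 (adjusted p = 0.0474). Close CD4 libraries were not summed. For lung minus CD4 the count of genes called lower was 0, 2 with the DESeq2 test, and from 0 to 1 with 1 library left out. Between treated monocyte and treated lung libraries Tyr, at 0.22, ran from −0.061 to 0.68 with 1 library left out, changing sign without treated lung library 4; none passed. The causes of these shifts were not tested. Depth limits the CD4 values, where 3 counts stand for 0.0706 to 0.170 CPM in a library.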

Other observations

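In the libraries labelled CD4 T cells, several genes of the wider pathway were detected although the enzymes were at 0. The 27 biogenesis genes summed to 979 to 1068 CPM in treated and 1238 to 1263 CPM in untreated libraries. In TMM-scaled CPM the order turned round, with 1129.7 to 1219 in treated and 1082 to 1108 in untreated libraries. None of the 27 was at 0 in all libraries of a group. Of the 26 tested, 10 were higher and 7 lower with propranolol, where 30.1% of all genes were higher and 29.9% lower. In plain CPM, Rab38, a small GTPase of lysosome-related organelles, stood at 1.84, 2.74, 2.02 and 1.44 CPM in treated libraries, against 8.40, 7.59, 6.29 and 8.71 CPM in untreated ones. Kit stood at 39.8, 46.7, 41.4 and 41.6 CPM in treated libraries, against 119, 114, 118 and 109 CPM in untreated ones, while Sox10 had no count in any of the 8. In the other direction, Mreg averaged 8.89 CPM in treated and 1.37 CPM in untreated libraries, and Rab32 averaged 19.4 and 9.22 CPM. Rab38, Kit, Mreg and Rab32 were picked here after their values were seen. Their levels are plain CPM, and no test of them is given.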
